A study of Mus musculus with 20 samples.

Results

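The 43 genes described here are imprinted genes of the mouse that lie outside the *H19* locus, taken from a list of names and grouped into 18 chromosomal domains and by the parental allele known to be expressed. Of these, 40 genes in 17 domains had at least 1 probe set of their own, 108 probe sets in all, among 18194 genes measured. *Dio3*, *Slc22a3* and *Zrsr1* were not analysed here. Each gene was described by the probe set of highest mean, and its others served as a check.

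An imprinted gene is expressed mainly from the copy inherited from a single parent. The choice rests on DNA methylation set in the egg or sperm at control regions, where the zinc finger protein ZFP57 recognises a methylated motif and holds the mark through early development. Many imprinted genes act on fetal and placental growth, and a group of them is active in fetal liver and falls silent after birth.

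Livers of 10 *IMP2-2* transgenic (tg) mice, which carry a liver-specific IGF2BP2/IMP2/p62 transgene, were compared with livers of 10 wildtype (wt) mice. IMP2-2/p62 is a splice variant of the mRNA binding protein IMP2. All animals were of the C57Bl6J/DBA2 background, 5 weeks old and untreated, and each sample was measured on 1 array. The promoter of the transgene and the number of founder lines are not given in the sources used here, and the transgene itself was not analysed here. In such bulk RNA, more cells of a type and more RNA per cell cannot be told apart.

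The values were log2 intensities after Robust Multi-array Average (RMA) normalisation, with array medians of 4.46 to 4.55. The 9 hepatocyte markers averaged 12.88 to 13.26 in tg livers and 12.92 to 13.27 in wt livers, and the pancreas and erythroid lists held no gene that passed the test. 2 pairs of wt arrays were nearly identical, namely wt_1407_2 with wt_1420_6 and wt_1407_5 with wt_1420_7. Their SD of the log2 difference was 0.168 and 0.172, against 0.228 to 0.401 for the other wt pairs. Each pair was counted once, which left 8 wt profiles in means, SDs and exact tests. The limma fits took all 20 arrays except where stated. The closest pair of all, at 0.155, was tg_1386_9 with wt_1386_4, of different genotype, and both were kept under their labels. 3 tg arrays, namely tg_1420_4, tg_1423_2-8_1 and also tg_1423_2-8_4, stood apart from the rest: on the first principal component of all probe sets, which held 32.7% of the variance, they scored 53.0 to 70.4, whereas the other tg arrays scored −20.2 to 8.3 and the wt arrays −26.8 to 7.65.

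2 of the 40 imprinted genes were higher in tg livers and 0 were lower (limma, Benjamini-Hochberg adjusted p under 0.05 over 45101 probe sets). Both are paternally expressed: *Peg3*, a zinc finger protein known for its part in fetal growth and maternal behaviour, and *Sgce*, the epsilon-sarcoglycan of the dystrophin-associated complex. Over all 18194 genes, 2.98% were higher and 0.967% were lower, so 2 of 40, or 5.0%, was close to the background. An unadjusted p under 0.05 was reached by 12 imprinted genes that were higher (30.0%) and by 1 that was lower, against 13.0% and 12.2% of all genes, and the rank sum test also called 2 genes higher and 0 lower. The median log2 fold change was 0.03 over the imprinted genes and −0.02 over all genes, with a range of −0.14 to 1.56 for the imprinted genes. Of the 108 probe sets, 4 were higher (3 of *Peg3* and 1 of *Sgce*) and 0 lower, against 1.88% and 0.663% of all probe sets. 12 genes had 3 or more tg arrays above all wt arrays (21.6% of all genes), and in 0 did every tg array lie above every wt array (0.115% of all genes) or below it (0.0055%). By parental allele, 2 of 19 paternally expressed genes and 0 of 18 maternally expressed genes were higher, with medians of 0.01 and 0.12, and 0 of 3 genes with tissue-dependent imprinting passed. The allele is the one listed for each gene, for *Ube3a* that in neurons, and was not measured in these livers. The same holds for the pairs of genes below.

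The 2 higher calls depended on the arrays used and on the fit. The sample labels carry 6 numbers that both genotypes share, and arrays of a number deviated together. With this label number as a term in the fit, 7 genes were higher, *Copg2*, *Plagl1*, *Phlda2*, *Grb10* and *Impact* being added, against 5.39% of all genes. With the label number as a random effect 4 were higher, namely *Peg3*, *Sgce*, *Plagl1* and *Impact*, against 4.19% of all genes. The background thus grew too, to 1634 probe sets higher and 607 lower with the term and 1249 and 542 with the random effect.

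With the near-identical wt arrays averaged before a fit without the label number, *Peg3* at 1.51 and *Sgce* at 0.71 still passed (limma, adjusted p = 0.0384 and 0.0216). The genes added by the label number did not pass there. The adjusted p was 0.087 for *Plagl1*, 0.126 for *Impact*, 0.152 for *Phlda2*, 0.177 for *Grb10* and 0.23 for *Copg2* (limma). In that fit 245 probe sets in all were higher and 31 lower, and 0.896% of all genes were higher. 1 imprinted gene, *Sgce*, was higher without the 3 arrays that stood apart (0.588% of all genes), and 0 were higher without the 4 tg_1423_2-8 and wt_1423_2-8 arrays (0.253%). Whether tg_1386_9 and wt_1386_4 come from a mix-up of labels or from 1 RNA measured again was not tested. Without both, 3 imprinted genes were higher, *Impact* being added (0.81, limma, adjusted p = 0.0381), with *Peg3* at 1.73 and *Sgce* at 0.77 (adjusted p = 0.00421 and 0.00272), against 4.0% of all genes, and 1209 probe sets were higher and 484 lower. In the fit to all 20 arrays 850 probe sets were higher and 299 lower, against 682 and 476 after renewed quantile normalisation and 969 and 156 after centring each array on its median. *Peg3* and *Sgce* passed under both.

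**Figure D1:**
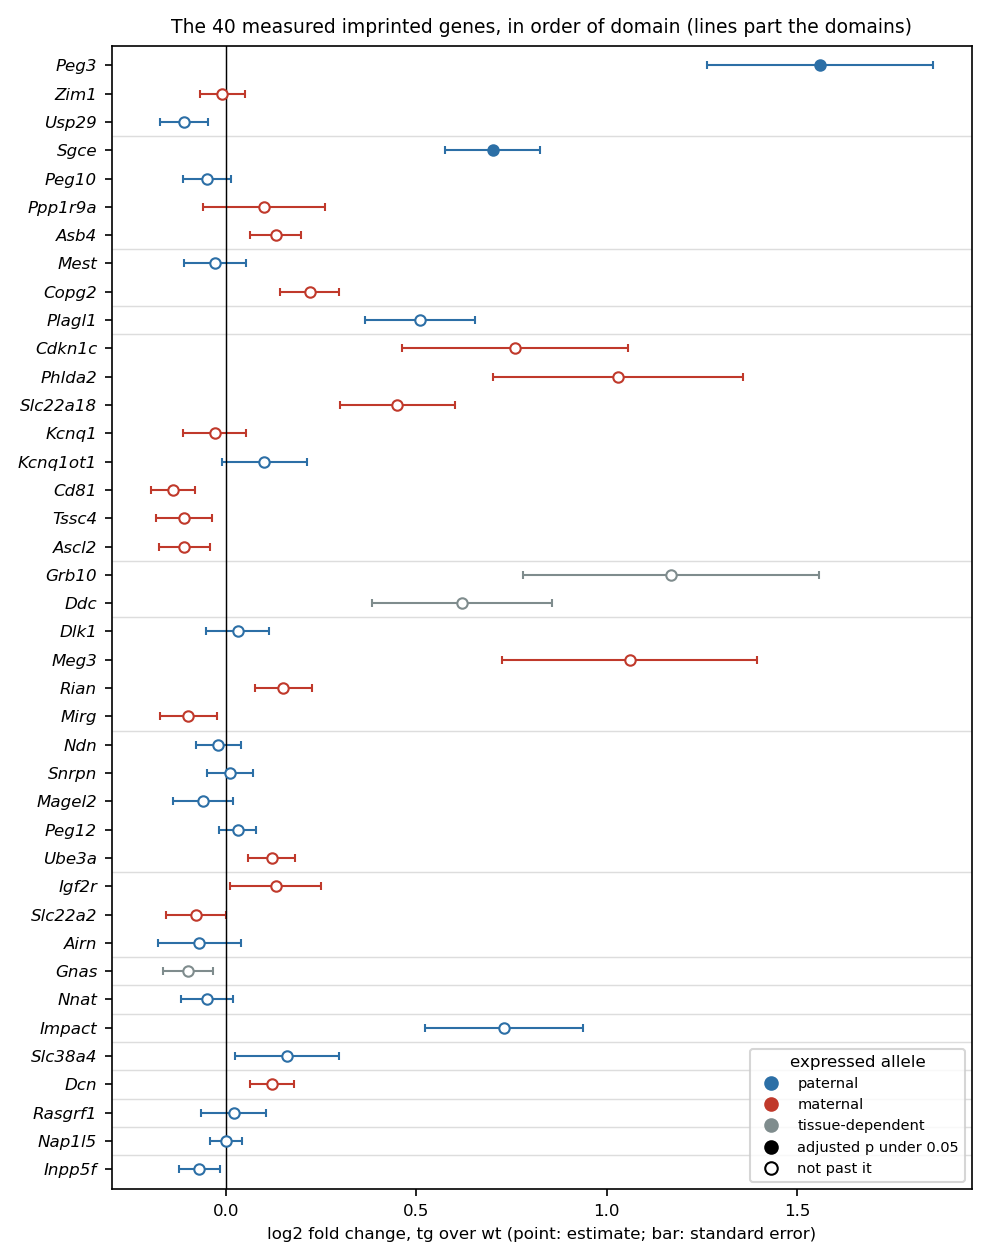
The log2 fold change, tg over wt, of each of the 40 measured imprinted genes with its standard error, in order of domain. *Peg3* at 1.56 and *Sgce* at 0.70, both filled, passed the threshold, and *Grb10*, *Meg3* and *Phlda2* lay above 1 with wide errors.

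Promoter sequences were set beside the members for the TGCCGC motif of ZFP57, and 3 are shown because they belong to the called gene of the *Peg3* domain and to *Plagl1* and *Meg3*, whose windows hold the motif and whose values are given below (both shown after their values were seen). RefSeq sequences on GRCm38.p6 gave 49 windows, of 250 bases before to 50 bases after a start, for 34 of the 40 genes. The lines hold the 250 bases before the start, 5′ to 3′ on the strand of the gene, with the motif on either strand in capitals (GCGGCA is its reverse complement).
*Peg3*, chr7:6730420-6730669, minus strand: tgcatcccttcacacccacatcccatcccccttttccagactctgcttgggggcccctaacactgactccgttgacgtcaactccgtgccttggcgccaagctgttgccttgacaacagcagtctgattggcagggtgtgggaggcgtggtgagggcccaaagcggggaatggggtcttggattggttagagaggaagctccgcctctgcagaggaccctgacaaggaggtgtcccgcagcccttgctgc
*Plagl1*, chr10:13090582-13090831, plus strand: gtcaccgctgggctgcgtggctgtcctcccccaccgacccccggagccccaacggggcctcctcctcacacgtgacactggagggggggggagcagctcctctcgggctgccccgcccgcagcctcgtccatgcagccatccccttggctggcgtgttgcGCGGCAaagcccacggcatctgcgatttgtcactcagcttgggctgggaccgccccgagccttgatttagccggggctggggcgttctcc
*Meg3*, chr12:109540746-109540995, plus strand: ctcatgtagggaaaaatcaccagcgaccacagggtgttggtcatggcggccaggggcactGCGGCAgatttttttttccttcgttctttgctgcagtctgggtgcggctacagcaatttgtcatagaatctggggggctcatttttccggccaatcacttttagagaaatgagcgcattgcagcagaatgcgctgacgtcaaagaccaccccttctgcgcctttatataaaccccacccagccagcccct
The *Peg3* window held 0 copies of the motif and 8 CpG, and the *Plagl1* and *Meg3* windows held 1 copy each, with 19 and 10 CpG. Over the windows of 300 bases, TGCCGC on either strand occurred in 11 of 49 (22.4%), from 10 genes, and in 11.6% of all 32851 promoters. CpG dinucleotides had a median of 12 per window in the imprinted genes and 7 in all promoters. AAGATGG, the core of the YY1 site, occurred in 1 of 49 windows (2.04%), that of *Ube3a*, against 6.34% of all promoters. These matches are descriptions of the letters and say nothing of binding or methylation in these livers, which were not measured on the arrays.

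*Peg3* had log2 values of 6.35, 7.38 and 8.88 (lowest, median and highest) in tg livers and 4.94, 5.94 and 6.82 in wt livers. 7 of 10 tg arrays lay above every wt array, the highest being tg_1420_4, while the other 3 fell in the upper range of wt. The means were 7.42 ± 0.78 in tg livers and 5.92 ± 0.66 in wt livers (SD, n = 10 and 8). The log2 fold change over all 20 arrays was 1.56 with a standard error of 0.297, a 2.94-fold higher level (limma, adjusted p = 0.00998). The two-sided exact permutation test over 43758 splits of the 18 profiles gave p = 0.00048. It is unadjusted and was run on a gene already called in the same arrays. 3.61% of all genes had 7 or more tg arrays above all wt arrays.

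Of the 5 *Peg3* probe sets, 3 were higher, with log2 fold changes of 1.56, 0.91 and 0.70 (limma, adjusted p = 0.00998, 0.0144 and 0.0213). The other 2 were dim, below the median probe set of 4.53, and gave 0.02 and −0.03. Within the 6 label numbers that both genotypes share, tg exceeded wt in 5, with differences of −0.04 to 2.23, the pair of tg_1386_9 and wt_1386_4 giving the negative value. Without the 3 arrays that stood apart the log2 fold change was 1.21 and no longer passed (limma, adjusted p = 0.0692), and without the 4 tg_1423_2-8 and wt_1423_2-8 arrays it was 1.39 (adjusted p = 0.105).

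*Sgce* had log2 values of 5.98, 6.33 and 7.14 in tg livers and 5.37, 5.59 and 6.0 in wt livers. 9 of 10 tg arrays lay above every wt array, and the lowest tg array, tg_1386_9, fell just under the highest wt array. The means were 6.36 ± 0.36 in tg livers and 5.65 ± 0.22 in wt livers (SD, n = 10 and 8), with a log2 fold change of 0.70 and a standard error of 0.124, or 1.63-fold (limma, adjusted p = 0.00562). The exact permutation test, again unadjusted and on a gene already called, gave p = 0.000137. All 6 label numbers had higher tg values, by 0.07 to 1.03. *Sgce* passed without the 3 arrays that stood apart (0.56, adjusted p = 0.0208) but not without the tg_1423_2-8 and wt_1423_2-8 arrays (0.62, adjusted p = 0.105), a fit of 16 arrays with 69 probe sets higher in all. Its second probe set was dim and gave 0.08.

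**Figure D2:**
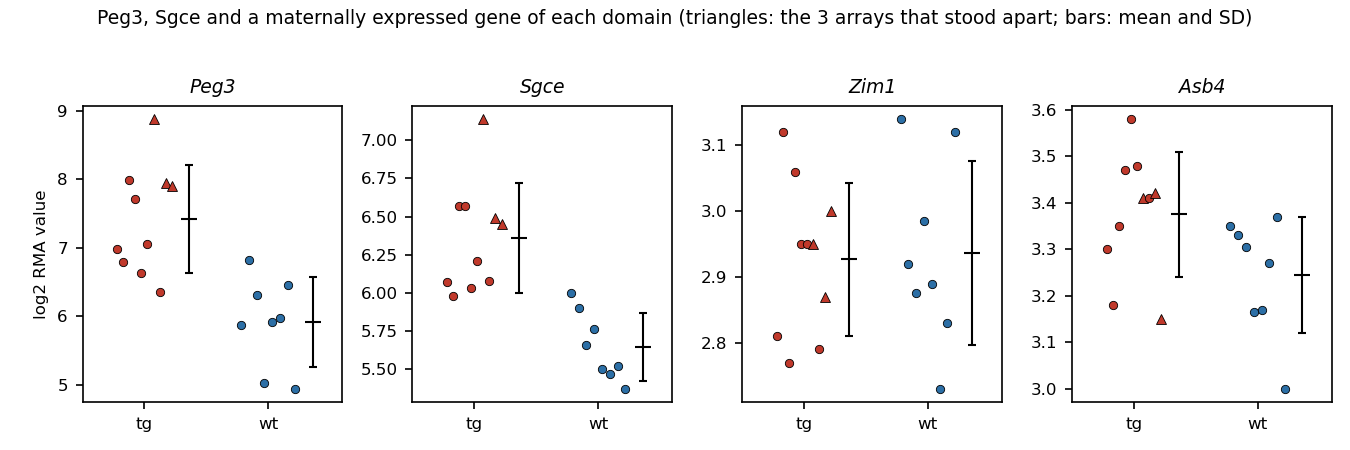
Log2 RMA values of *Peg3*, *Sgce*, *Zim1* and *Asb4* in each profile, tg left and wt right, with mean and SD; the vertical scales differ between panels. 7 tg arrays of *Peg3* and 9 of *Sgce* lay above all wt arrays, whereas *Zim1* and *Asb4* overlapped broadly.

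The other genes of both domains did not pass. In the *Peg3* domain, *Usp29*, a ubiquitin-specific protease gene expressed from the paternal copy, whose start lies beside that of *Peg3* on the other strand, gave −0.11 on the log2 fold change scale (standard error 0.0631), and the maternally expressed zinc finger gene *Zim1* gave −0.01 (0.0597). *Zim1* had log2 values of 2.77, 2.95 and 3.12 in tg livers and 2.73, 2.90 and 3.14 in wt livers. Both genes were dim in both genotypes, so a change in them may not have been detectable on these arrays.

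In the *Sgce*-*Peg10* domain, *Peg10*, the retrotransposon-derived gene that placenta formation needs, gave −0.05 (standard error 0.0622), *Ppp1r9a*, an actin-binding phosphatase regulator, gave 0.10 (0.16), and *Asb4*, an ankyrin repeat protein, gave 0.13 (0.0679). *Asb4* had log2 values of 3.15, 3.41 and 3.58 in tg livers and 2.91, 3.30 and 3.42 in wt livers. 4 tg arrays lay above all wt arrays at this dim probe set. *Peg10*, at means of 3.67 in tg livers and 3.72 in wt livers, was dim as well, so a change in it may not have been detectable. Of the 10 nearest measured genes of *Peg3* and the 10 of *Sgce*, 5 on either side by the RefSeq order, 0 passed in each set. Over all genes 2.98% were higher. Their log2 fold changes were −0.20 to 0.25 and −0.19 to 0.22. They include the listed *Zim1*, *Usp29*, *Peg10* and *Ppp1r9a*, and beside *Sgce* the collagen gene *Col1a2* at 0.22 and the paraoxonase genes *Pon1* and *Pon2* at −0.19 and 0.19. All *Peg3* neighbours but *Zfp954* lay below the median probe set of 4.53, where a change may not have been detectable.

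The difference between a paternally and a maternally expressed gene of the same domain was taken in each liver for 7 pairs, and its change with genotype was tested by the two-sided exact permutation test, adjusted over the 7 pairs. The *Peg3* minus *Zim1* difference was 4.5 ± 0.79 in tg livers and 2.98 ± 0.74 in wt livers (SD, n = 10 and 8), a change of 1.52 (exact permutation test, adjusted p = 0.00328). The *Sgce* minus *Asb4* difference was 2.98 ± 0.37 in tg livers and 2.40 ± 0.19 in wt livers, a change of 0.58 (exact permutation test, adjusted p = 0.00328). *Zim1* and *Asb4* lay below the median probe set, so these changes restate the 1.51 of *Peg3* and the 0.71 of *Sgce* over the profiles and say nothing of the maternally expressed gene. The other 5 pairs did not pass.

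The *Dlk1* minus *Meg3* difference was −2.87 ± 1.20 in tg livers and −1.87 ± 0.25 in wt livers, a change of −1.0 (exact permutation test, p = 0.0226, adjusted p = 0.0527). *Kcnq1ot1* minus *Cdkn1c* changed by −0.66 and *Airn* minus *Igf2r* by −0.23 (adjusted p = 0.093 for both, exact permutation test). *Mest* minus *Copg2* changed by −0.19 and *Ndn* minus *Ube3a* by −0.11 (adjusted p = 0.284 for both, exact permutation test). All 5 of these changes were negative, the opposite sign to those of the *Peg3* and *Sgce* pairs, but none passed. In these 5 pairs the log2 fold change was −0.07 to 0.10 for the paternally and 0.12 to 1.06 for the maternally expressed gene. The paternally expressed *Dlk1*, *Ndn*, *Airn* and *Mest* had tg means of 4.74 to 5.06, little above the median probe set of 4.53, which limits what could be detected in them.

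**Figure D3:**
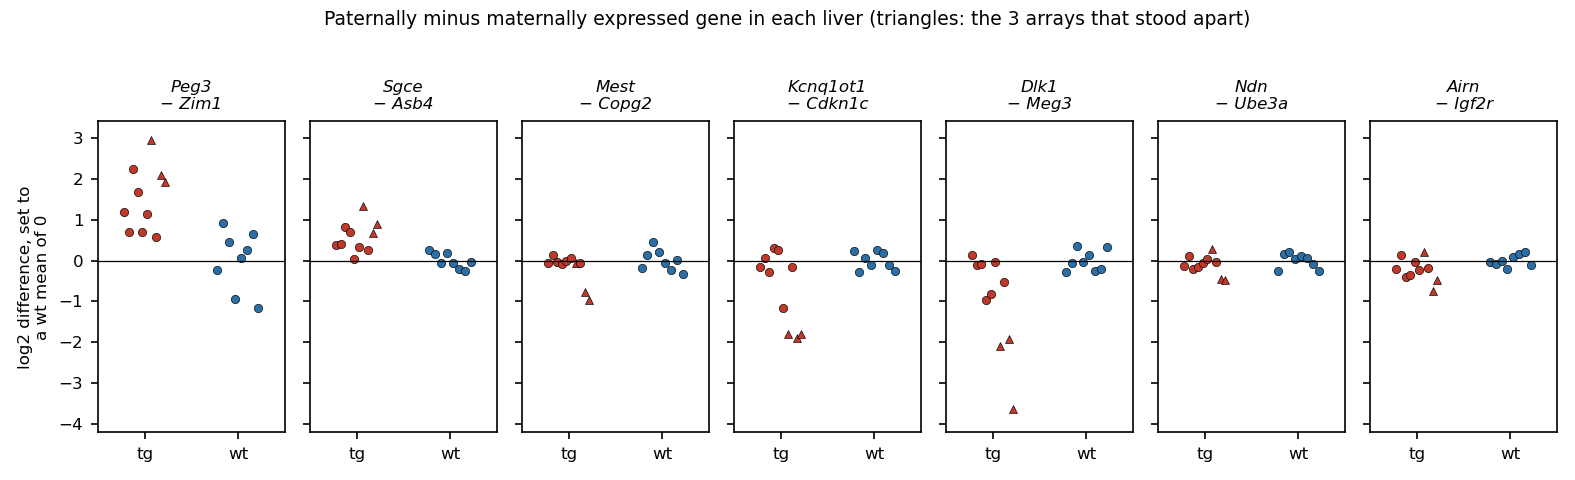
Log2 value of the paternally expressed gene minus that of the maternally expressed gene in each profile, set to a wt mean of 0, for 7 pairs. The tg profiles of *Peg3* minus *Zim1* lay above 0, and for *Dlk1* minus *Meg3* and *Kcnq1ot1* minus *Cdkn1c* the lowest values were those of the 3 arrays that stood apart.

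The largest differences that did not pass were those of *Grb10*, *Meg3*, *Phlda2*, *Cdkn1c*, *Impact* and *Ddc*. In each of these genes, and in *Slc22a18*, the 3 highest of the 20 arrays were the 3 that stood apart. That held for 7 of 40 imprinted genes (17.5%) and for 8.45% of all genes. *Gnas*, the stimulatory G protein subunit, was the only imprinted gene with these arrays as the 3 lowest (2.5%, against 4.93% of all genes). The same 3 arrays had the highest mean of the 9 fetal hepatoblast markers, at 6.80 to 7.34, against 5.07 to 6.47 in the other tg livers and 4.40 to 5.49 in wt livers, and the part of this in the imprinted genes was not tested.

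*Grb10*, an adaptor that dampens insulin and IGF1 receptor signalling and is expressed from the maternal copy in most tissues and the paternal copy in neurons, had log2 values of 6.02, 6.62 and 9.34 in tg livers and 5.45, 6.17 and 6.56 in wt livers. The 3 arrays that stood apart had 8.31 to 9.34, and the other 7 tg arrays, at 6.02 to 6.99, overlapped wt. The means were 7.16 ± 1.29 in tg livers and 6.02 ± 0.39 in wt livers (SD, n = 10 and 8), with a log2 fold change of 1.17, standard error 0.389 (limma, adjusted p = 0.0976, 0.0497 with the label number as a term and 0.0684 with it as a random effect). Without the 3 arrays it was 0.41 (adjusted p = 0.349). The other 2 *Grb10* probe sets, both dim, gave −0.03 and 0.23. *Ddc*, the neighbouring aromatic amino acid decarboxylase gene, had log2 values of 10.36, 10.81 and 11.33 in tg livers and 8.70, 10.37 and 10.89 in wt livers.

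The *Ddc* log2 fold change was 0.62, standard error 0.237 (limma, adjusted p = 0.142). Here wt_1423_2-8_3 and wt_1423_2-8_9, at 9.15 and 8.70, lay far below the other wt arrays, and without the tg_1423_2-8 and wt_1423_2-8 arrays the value was 0.19. The second *Ddc* probe set gave −0.03.

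*Meg3*, a long non-coding RNA expressed from the maternal copy of the *Dlk1*-*Dio3* domain, had log2 values of 6.58, 7.18 and 10.01 in tg livers and 6.26, 6.54 and 6.92 in wt livers. 7 of 10 tg arrays lay above every wt array, and the 3 arrays that stood apart reached 8.56 to 10.01. The means were 7.61 ± 1.13 in tg livers and 6.59 ± 0.23 in wt livers (SD, n = 10 and 8), with a log2 fold change of 1.06, standard error 0.335 (limma, adjusted p = 0.0833). The exact permutation test, unadjusted and on a gene picked for its large difference, gave p = 0.0124. Over the 6 genes picked in this way the same test gave p = 0.00987 (*Ddc*) to 0.0709 (*Cdkn1c*). For *Meg3*, tg was higher in all 6 label numbers, by 0.06 to 2.66. Of 11 *Meg3* probe sets, 0 passed, with log2 fold changes of −0.05 to 1.54.

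*Dlk1*, a transmembrane protein of hepatoblasts and preadipocytes, had log2 values of 4.48, 4.73 and 5.06 in tg livers and 4.38, 4.75 and 4.99 in wt livers, with a log2 fold change of 0.03 (standard error 0.0833, limma, adjusted p = 0.87). The maternally expressed long non-coding RNAs *Rian* and *Mirg* gave 0.15 and −0.10 (standard errors 0.0745 and 0.0748), neither past the threshold. The other 3 *Rian* probe sets gave 0.64, 0.24 and 0.04, the first at a dim mean of 3.81 in tg livers and 3.17 in wt livers (limma, unadjusted p = 0.0501, adjusted p = 0.246). Without the 3 arrays that stood apart the *Meg3* value was 0.42 (adjusted p = 0.163).

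In the *Kcnq1* domain on chromosome 7, 0 of 8 genes passed. At an unadjusted p under 0.05, 3 were higher (37.5%) and 1 was lower, against 13.0% and 12.2% of all genes. The RefSeq order of the 8 genes is *Ascl2*, *Cd81*, *Tssc4*, *Kcnq1*, *Kcnq1ot1*, *Cdkn1c*, *Slc22a18* and *Phlda2*, and those 3 higher genes were the last 3. *Phlda2*, a brake on placental growth, had log2 values of 3.99, 4.87 and 7.17 in tg livers and 3.83, 4.18 and 4.34 in wt livers. Its 3 arrays that stood apart had 6.32 to 7.17, the other tg arrays 3.99 to 5.13, and 7 tg arrays exceeded all wt arrays.

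The *Phlda2* means were 5.20 ± 1.13 in tg livers and 4.16 ± 0.15 in wt livers (SD, n = 10 and 8), with a log2 fold change of 1.03, standard error 0.329 (limma, adjusted p = 0.0871, 0.0432 with the label number as a term and 0.0618 with it as a random effect). *Cdkn1c*, the cyclin-dependent kinase inhibitor p57, had log2 values of 4.57, 5.39 and 7.22 in tg livers and 4.64, 5.02 and 5.38 in wt livers. All 3 arrays that stood apart had 7.09 to 7.22, and the other tg arrays, at 4.57 to 5.60, overlapped wt. The means were 5.77 ± 1.0 in tg livers and 5.04 ± 0.24 in wt livers, with a log2 fold change of 0.76, standard error 0.297 (limma, adjusted p = 0.152).

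*Slc22a18*, an organic cation transporter gene, had log2 values of 9.12, 9.34 and 10.40 in tg livers and 9.02, 9.14 and 9.33 in wt livers. The 3 arrays that stood apart, at 10.12 to 10.40, were clear of all others, and the other tg arrays reached 9.44. Its log2 fold change was 0.45, standard error 0.152 (limma, adjusted p = 0.102), and its second probe set gave 0.33. Without the 3 arrays the values were 0.37 for *Phlda2*, 0.16 for *Cdkn1c* and 0.14 for *Slc22a18*, none past the threshold.

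The 5 genes on the other side did not show this pattern. *Kcnq1ot1*, the paternally expressed long non-coding RNA that silences the domain in cis, had log2 values of 5.35, 6.08 and 6.51 in tg livers and 5.68, 5.90 and 6.28 in wt livers, with a log2 fold change of 0.10 (standard error 0.112). The potassium channel gene *Kcnq1* gave −0.03, the spliceosome-associated *Tssc4* −0.11 and the basic helix-loop-helix factor *Ascl2* −0.11. *Cd81*, a tetraspanin, gave −0.14, standard error 0.0578 (limma, adjusted p = 0.167), and 0 tg arrays lay above the wt median. *Slc22a18* and *Cd81*, with *Plagl1* and *Dcn* below, were named after their values were seen.

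*Impact*, a paternally expressed regulator of the translation response to amino acid shortage, had log2 values of 6.61, 7.26 and 8.33 in tg livers and 6.52, 6.70 and 6.80 in wt livers. 7 of 10 tg arrays lay above every wt array: the 3 that stood apart at 8.18 to 8.33, then tg_1407_3 and tg_1407_9 at 7.78 and 7.55, then tg_1420_14 and tg_1420_12 at 6.97 and 6.93. The means were 7.41 ± 0.71 in tg livers and 6.69 ± 0.11 in wt livers (SD, n = 10 and 8), with a log2 fold change of 0.73, standard error 0.208 (limma, adjusted p = 0.0608). It passed with the label number as a term (adjusted p = 0.0382), and with it as a random effect (adjusted p = 0.0424). It did not without the 3 arrays (0.36, adjusted p = 0.313), nor with the near-identical wt arrays averaged (0.72, limma, adjusted p = 0.126). Its other 2 probe sets gave −0.11, at a level above the median probe set, and 0.00.

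*Plagl1*, a zinc finger transcription factor that regulates other imprinted genes, had log2 values of 6.43, 6.62 and 7.38 in tg livers and 5.40, 6.41 and 6.54 in wt livers. 6 tg arrays lay above all wt arrays, and of the 3 arrays that stood apart only tg_1420_4 was high, at 7.38. The log2 fold change was 0.51, standard error 0.145 (limma, adjusted p = 0.059, 0.00614 with the label number as a term and 0.0322 with it as a random effect), and tg was higher in all 6 label numbers. The other 2 probe sets, both dim, gave −0.12 and −0.06.

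**Figure D4:**
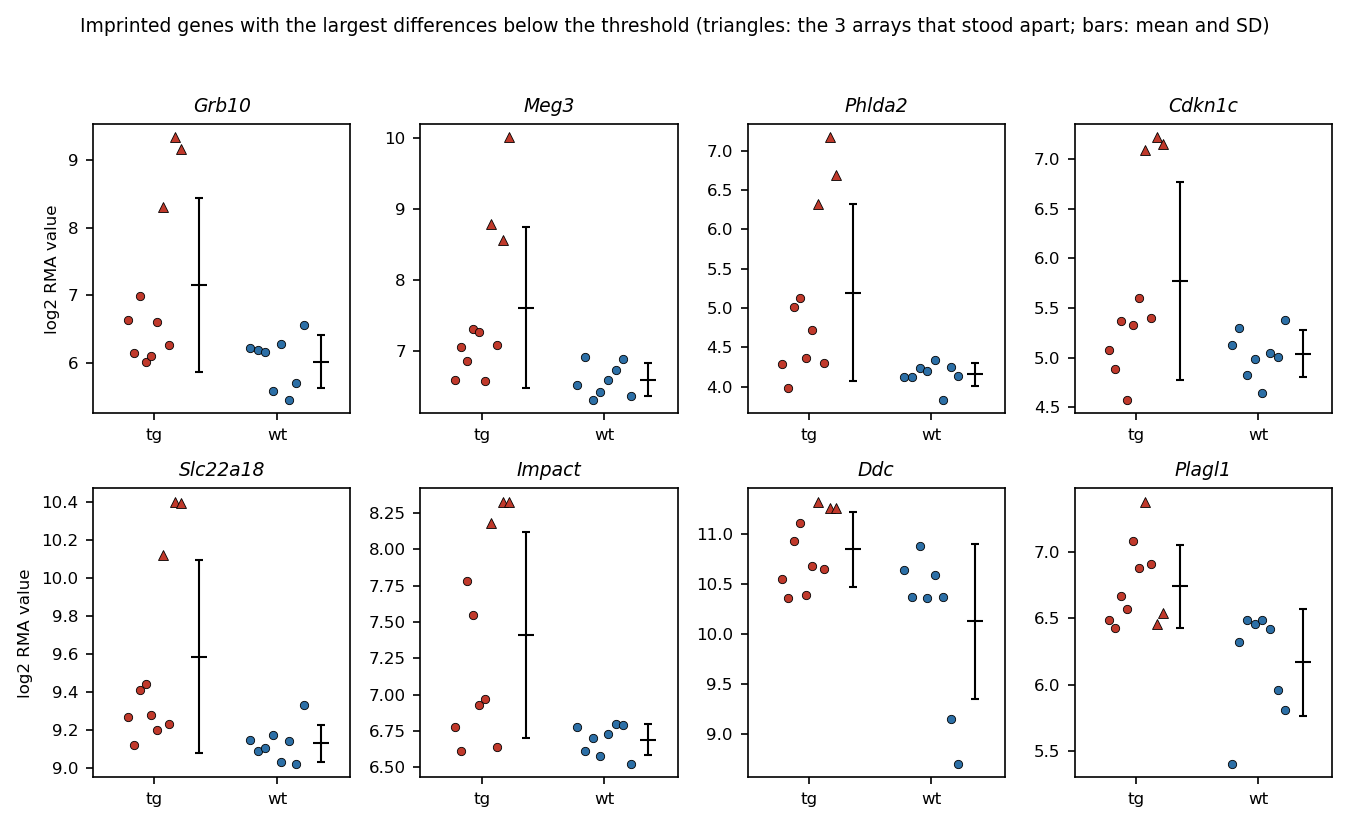
Log2 RMA values in each profile, tg left and wt right, with mean and SD, for *Grb10*, *Meg3*, *Phlda2*, *Cdkn1c*, *Slc22a18*, *Impact*, *Ddc* and *Plagl1*; vertical scales differ. Triangles mark the 3 arrays that stood apart, which are the highest in each panel except that of *Plagl1*.

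In the *Mest* domain, *Copg2*, a coatomer subunit expressed from the maternal copy, had log2 values of 7.06, 7.30 and 7.67 in tg livers and 6.83, 7.06 and 7.37 in wt livers. 2 tg arrays exceeded all wt arrays, and the log2 fold change was 0.22, standard error 0.0773 (limma, adjusted p = 0.11, 0.0371 with the label number as a term and 0.0725 with it as a random effect). *Mest*, a hydrolase fold protein of fetal mesoderm, had log2 values of 4.63, 5.19 and 5.24 in tg livers and 4.93, 5.10 and 5.26 in wt livers. The ranges overlapped, but tg_1423_2-8_1 and tg_1423_2-8_4, at 4.69 and 4.63, lay below every wt array. The *Mest* log2 fold change was −0.03 (standard error 0.0814).

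In the *Snrpn* domain, 0 of 5 genes reached an unadjusted p under 0.05. *Ndn*, which codes for necdin, had log2 values of 4.70, 4.84 and 5.17 in tg livers and 4.68, 4.92 and 5.04 in wt livers, with a log2 fold change of −0.02. *Ube3a*, the ubiquitin ligase that is maternally expressed in neurons, had log2 values of 8.69, 8.80 and 9.07 in tg livers and 8.56, 8.68 and 9.06 in wt livers, with a log2 fold change of 0.12. Both overlapped, and *Snrpn*, *Magel2* and *Peg12* gave 0.01, −0.06 and 0.03.

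In the *Igf2r* domain, too, 0 of 3 genes reached an unadjusted p under 0.05. *Igf2r*, the receptor that clears IGF2, had log2 values of 7.73, 8.08 and 8.81 in tg livers and 7.75, 7.99 and 8.34 in wt livers, with a log2 fold change of 0.13 (standard error 0.12) that turned to −0.05 without the 3 arrays that stood apart. *Airn*, the paternally expressed antisense RNA that overlaps *Igf2r*, had log2 values of 4.57, 4.92 and 5.63 in tg livers and 4.84, 5.03 and 5.34 in wt livers, with a log2 fold change of −0.07. The ranges of both genes overlapped, and the transporter *Slc22a2* gave −0.08.

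Of the genes that stand alone in their domain, *Dcn*, the matrix proteoglycan decorin, had log2 values of 10.41, 10.59 and 10.81 in tg livers and 10.25, 10.49 and 10.61 in wt livers, with a log2 fold change of 0.12 (standard error 0.0581, limma, adjusted p = 0.233). 4 tg arrays lay above all wt arrays. *Gnas*, *Nnat*, *Slc38a4*, *Rasgrf1*, *Nap1l5* and *Inpp5f* lay between −0.10 and 0.16, none past the threshold. The second probe set of the amino acid transporter gene *Slc38a4* gave −0.29, at means of 10.99 in tg livers and 11.28 in wt livers, against 0.16 for its first (limma, unadjusted p = 0.0111, adjusted p = 0.122). That of the phosphatase gene *Inpp5f* gave −0.17 (limma, unadjusted p = 0.0191, adjusted p = 0.156). 9 of the 40 genes lay below the median probe set of 4.53, where 0 reached an unadjusted p under 0.05.

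Among 30 of 38 further imprinted genes that were measured, 1 was higher and 0 were lower, with a median log2 fold change of 0.02. That is 3.33% higher, close to the 2.98% of all genes. The higher gene was *Axl*, a receptor tyrosine kinase of macrophages and other cells, at 0.69 (standard error 0.131, limma, adjusted p = 0.0096). Among 17 genes that set, keep or remove DNA methylation at imprints, 1 was higher (5.88%, against 2.98% of all genes) and 0 were lower. It was *Smchd1*, a chromatin protein of X inactivation and some imprinted clusters, at 0.37 (standard error 0.0728, limma, adjusted p = 0.012). The maintenance factors *Uhrf1* at 0.68 and *Dnmt1* at 0.30 did not pass (limma, adjusted p = 0.0583 and 0.0682). *Tet3* at −0.17 and *Zfp57* at −0.19 did not pass either (limma, adjusted p = 0.0869 and 0.108). These uncalled genes were named after their values were seen. The median of the 17 was 0.08.

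Markers of other cells moved with genotype beside these genes. Of the 10 Kupffer cell and macrophage markers, 7 were higher (70.0%, against 2.98% of all genes). The mean of the 10 ranged over 7.78 to 8.57 in tg livers and 7.44 to 8.09 in wt livers. Of the 9 fetal hepatoblast markers 4 were higher (44.4%). These were *Bex1* at 4.83, *Afp* at 4.14, *Igf2* at 1.93 and *Gpc3* at 1.61 on the log2 fold change scale. In the same list 3 were negative and not called, namely *Lin28b* at −0.04, *Igf2bp1* at −0.13 and *Hmga2* at −0.17. Of the 12 stellate cell and fibroblast markers 0 passed, with means of 7.44 to 8.17 in tg livers and 7.48 to 7.84 in wt livers, and the 3 arrays that stood apart spanned 7.66 to 8.17. Of the 10 endothelial markers 1 was higher, *Lyve1* at 1.0 (limma, adjusted p = 0.0214). Of the 8 cholangiocyte markers 1 was higher, *Pkhd1* at 0.94 (limma, adjusted p = 0.04). The cholangiocyte mean was 4.70 to 5.12 in the 3 arrays that stood apart, 4.49 to 4.86 in the other tg livers and 4.25 to 4.66 in wt livers. The part of these cell types in the values of *Peg3*, *Sgce* and the other imprinted genes was not tested.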

How the data were processed

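RNA of 20 livers (10 tg, 10 wt, 1 array each) had been hybridised to Affymetrix mouse GeneChips. The deposited values are log2 expression values that the authors normalised with RMA, for 45101 probe sets; no source used here gives the RMA version. The number of arrays limits the precision. Gene names came from the platform annotation: 34958 probe sets had 1 symbol, 932 several and 9211 none, and only those with 1 symbol were named. 7 probe sets shared with another gene, among them those of *Snurf* with *Snrpn*, were left out.

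limma (version 3.58.1, R 4.3.3) was fitted by genotype to all probe sets and arrays, with Benjamini-Hochberg adjustment and a threshold of 0.05; it was first tested on simulated data. Quoted means take near-identical wt arrays (SD of the log2 difference under 0.2) as 1 profile, ranges and medians take all arrays, and fold changes are those of limma. Whether arrays came from different litters or sites is not given, so p-values measure the spread between these samples. The genes given in full were those past the threshold, the 6 with the largest differences not past it whose mean in either genotype reached the median probe set, and the genes of the 7 pairs. The members, lists and pairs were chosen with earlier results of these data known. Lists were read from counts and medians, with no test.

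Both genotypes share 6 label numbers, which no source used here explains. Deviations from the genotype mean correlated within each number at 0.184 to 0.404, the highest value being with the own number in 5 of 6, so the numbers were taken to pair the arrays. Alternatives were the label number as a fixed or random effect, other normalisation, filters, probe sets and tests, and arrays left out.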

Additional observations from a re-analysis of the deposited data

Results flagged for a closer look

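In 5 of 80 groups of values (40 genes, 2 genotypes) a single array lay far from the others by Dixon's criterion, about what chance gives (1 in 20 groups). *Sgce* in tg_1420_4 was 7.14, with the next tg array at 6.57. *Ndn* in tg_1420_4 was 5.17, with the next at 4.92. *Phlda2* in wt_14231_2 was 3.83, with the next wt profile at 4.12, and *Magel2* in the same array was 2.96, with the next at 3.41. *Ube3a* in wt_1423_2-8_9 was 9.06, with the next at 8.82.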

How the results depend on the processing

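The count of imprinted genes higher in tg livers was 2. It was 7 with the label number as a term (replicate block) and 4 with it as a random effect (consensus correlation 0.082). When only probe sets above the median were tested, which shortens the list the p-values are adjusted over, it was 4 (1154 probe sets higher). It was 0 without the tg_1423_2-8 and wt_1423_2-8 arrays and 1 without the 3 arrays that stood apart, both with fewer samples. Leaving out each array in turn gave 2 to 5, with 5 without tg_1386_9 (*Plagl1*, *Phlda2* and *Impact* added) and 3 without tg_1371_2 or tg_14231_6 (*Impact* added). The count of lower genes was 0 in all settings run. *Peg3* (1.39 to 1.68) and *Sgce* (0.62 to 0.74) passed with each array left out.

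Among the pairs, *Dlk1* minus *Meg3* passed with all 20 arrays kept apart (−1.03, permutation test with 100000 relabelings, adjusted p = 0.012), and with each array left out it was −1.13 to −0.71, passing without tg_1371_2, tg_1386_9, tg_1407_3, tg_1420_14 or wt_1407_5. *Airn* minus *Igf2r* was −0.28 to −0.18, passing without tg_1386_9 or tg_1420_4. The cause was not tested.

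Small values changed sign. *Zim1* gave 0.02 after quantile normalisation and after centring and 0.00 without the tg_1423_2-8 and wt_1423_2-8 arrays (−0.03 to 0.02 with an array left out). *Mest* gave 0.00 with array weights, 0.04 without those 4 arrays and 0.06 without the 3 arrays (−0.05 to 0.02). *Ndn* gave 0.00 after centring, 0.02 without those 4 arrays, 0.20 with the probe set of largest SD and 0.04 without _s_at and _x_at probe sets. *Dlk1* gave −0.02 (−0.01 to 0.06) and *Plagl1* −0.12 without those probe sets, and *Igf2r* −0.05 without the 3 arrays. Dim probe sets limit what could be detected.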
